A study of Mus musculus with 6 samples.

Results

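The cytosolic ribosomal protein genes encode the protein subunits of the ribosome that translates nuclear-encoded mRNAs. They were taken as the protein-coding genes whose symbol is Rpl or Rps with a number and at most a short suffix, together with Rpsa, Rplp0, Rplp1 and Rplp2, without the Rps6k kinase genes and without symbols marked as pseudogenes. The rule found 83 of the 54600 genes in the table, 32 of the small (40S) and 51 of the large (60S) subunit by name. Of these, 80 reached 1 TPM in at least 3 of the 6 libraries and were tested. The other 3, the testis-type copies Rpl10l and Rpl39l and the muscle-type copy Rpl3l, were at or near 0 in every library.

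RNA came from liver, and every mouse had eaten high-fat food over 16 weeks. A group of 3 libraries is labelled wild type (WT) and a group of 3 is labelled KO, for a hepatocyte-specific knockout of HIF-2α. The sample titles themselves read only WT and KO. The high-fat diet was common to both groups, so no library shows the liver on another diet. For strain, sex, age at the start and the Cre line, no statement was found in the sources used here. Values are TPM, which are corrected for transcript length, so levels can be compared between genes. They add up to the same total in each library, so a larger share taken by some genes lowers the values of the others. Comparisons between libraries are therefore given before and after a rescaling described below.

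Most ribosomal proteins are made in equimolar amounts, and a liver cell, which exports much of the protein it makes, holds large numbers of ribosomes. Their mRNAs begin with a C followed by a tract of pyrimidines, the 5′ terminal oligopyrimidine (TOP) motif, through which mTORC1 and the RNA-binding protein Larp1 control their translation. Their genes have also given rise to many processed pseudogenes, intronless DNA copies of the mRNA inserted elsewhere in the genome.

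A copy with the same bases as its parent gene can share reads with it, and Rps27 is given as the example. Rps27 (mm10 chromosome 3, 90212522 to 90213651, minus strand) encodes a zinc-finger protein of the small subunit. Rps27rt (chromosome 9, 114982366 to 114982739, minus strand) is a single-exon copy annotated as protein-coding, and Rps27l (chromosome 9, 66946086 to 66949516, plus strand) is a paralogue that entered the rule on its own. The coding sequences follow, from GENCODE M21 transcripts, with capitals marking bases that differ from Rps27.
Rps27: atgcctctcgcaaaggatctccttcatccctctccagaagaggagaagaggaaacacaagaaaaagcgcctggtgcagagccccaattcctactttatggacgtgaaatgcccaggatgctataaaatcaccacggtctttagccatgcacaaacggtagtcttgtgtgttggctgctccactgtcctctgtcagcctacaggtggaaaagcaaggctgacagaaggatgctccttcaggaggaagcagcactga
Rps27rt: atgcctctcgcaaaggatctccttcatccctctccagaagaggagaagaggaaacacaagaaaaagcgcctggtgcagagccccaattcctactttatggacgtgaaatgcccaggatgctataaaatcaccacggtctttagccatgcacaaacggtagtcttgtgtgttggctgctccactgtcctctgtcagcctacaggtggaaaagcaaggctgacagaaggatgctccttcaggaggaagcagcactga
Rps27l: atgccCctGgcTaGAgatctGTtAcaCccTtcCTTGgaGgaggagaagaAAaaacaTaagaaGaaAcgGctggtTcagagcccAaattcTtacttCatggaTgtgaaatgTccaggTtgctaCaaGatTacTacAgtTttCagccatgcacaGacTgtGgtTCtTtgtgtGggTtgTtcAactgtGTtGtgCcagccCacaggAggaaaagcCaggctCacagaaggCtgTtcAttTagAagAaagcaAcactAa
Over all 255 bases Rps27rt had 0 differences from Rps27, so a read inside the coding sequence fits both. Rps27l differed at 61 bases and was 76.1% identical.

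Promoter sequences from RefSeq (GRCm38.p6, the same build as mm10) were matched by symbol for 63 of the 83 genes, with 75 listed starts. An unbroken run of at least 7 pyrimidines that opens with C, between 40 bases before and 20 bases after a listed start, stood at 58.7% of the members' starts and at 27.7% of all 32851 listed starts. The sequences below show that window for members described further on, with the longest such run in capitals. They are Rps6 at chr4:86857348-86857407 (minus strand), Rpl35 at chr2:39005112-39005171 (minus strand), Rpl27a at chr7:109519155-109519214 (plus strand), Rps25 at chr9:44407674-44407733 (plus strand) and Rpl12 at chr2:32961672-32961731 (plus strand).
Rps6: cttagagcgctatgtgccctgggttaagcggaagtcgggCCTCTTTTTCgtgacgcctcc
Rpl35: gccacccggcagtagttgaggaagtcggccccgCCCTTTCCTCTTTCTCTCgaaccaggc
Rpl27a: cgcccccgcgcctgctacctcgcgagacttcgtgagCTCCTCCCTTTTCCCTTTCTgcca
Rps25: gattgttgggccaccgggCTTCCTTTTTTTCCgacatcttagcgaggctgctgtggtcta
Rpl12: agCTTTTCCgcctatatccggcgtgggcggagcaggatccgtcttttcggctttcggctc
In Rps6 and Rpl35 the run lies across the listed start, which comes after the first 40 bases of each line, whereas in Rps25 and Rpl12 it lies ahead of it. CCGGAAG, a core of sites bound by ETS-family factors, was found on either strand in 36.0% of the members' 300-base promoters and in 8.86% of all promoters. AAGATGGC, a core of YY1 sites, was in 10.7% of the members' and 2.75% of all promoters, and TATAAA in the 40 bases before the start in 1.33% and 2.31%. Overlaps between motifs were not removed, and a match is a stretch of letters and not a site shown to be bound.

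The targeted gene, Epas1 (chromosome 17, 86753700 to 86833410), did not run lower under the KO label. Its level was 23.8, 26.0 and 21.01 TPM under the WT label and 26.6, 35.1 and 29.4 TPM under the KO label, over the whole gene and all liver cells. The labels could not be checked from it, and each direction below is between labels. Hepatocyte markers summed to 46520 to 55690 TPM under WT and 53010 to 69860 under KO. Markers of T and NK cells summed to at most 5.96 TPM and those of B and plasma cells to at most 21.3 TPM in any library. Cholangiocyte markers (2 of 6 tested) summed to 24.9 to 35.4 TPM under WT and 35.05 to 56.2 under KO, and erythroid markers to 634 to 1048 and 798 to 1830. Their part in the results was not tested. In bulk tissue, fewer cells of a type and less RNA per cell cannot be told apart.

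By median coefficient of variation, the members varied less between libraries than other abundant genes. Together the 83 genes took 2.17%, 2.08% and 1.92% of all TPM in the libraries labelled WT and 2.27%, 2.30% and 2.19% in those labelled KO. All 3 KO-labelled shares lay above all 3 WT-labelled ones. The means were 2.06% ± 0.128 and 2.25% ± 0.0586 (SD, n = 3 each), a ratio of 1.095. After the libraries were divided by median ratios, which sets the typical gene to the same level in each, the ratio of the sums was 1.014 and the ranges overlapped. Between libraries the median coefficient of variation of a member was 8.33%, against 17.4% over all genes tested and 13.4% over the 1381 other genes with a mean of at least 50 TPM. Of the 80, 77 varied by less than 15%, a count that was not made over the other genes.

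The most abundant members were Rpl41, the smallest ribosomal protein, at a mean of 770 TPM, Rps2 at 739, Rpl13a at 667, Rps15 at 570 and Rpl23a at 556. The lowest tested rows were Rpl12 at 4.61 TPM, Rpl5 at 16.3, Rpl7l1 at 36.4, Rps27 at 44.9 and Rpl27a at 66.4. Rpl12 belongs to the base of the ribosomal stalk and Rpl5 binds 5S rRNA, and both are single-copy subunits of every large subunit. Rpl7l1, a nucleolar relative of Rpl7, is the exception among these 5 in having no identical copy.

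A search of the members' coding sequences against GENCODE M21 transcripts found 17 members with an intronless copy elsewhere that was 100% identical over at least 95% of the coding sequence and had TPM above 0. Of these copies, 14 are annotated as pseudogenes and 3 as protein-coding (Rpl10-ps3, Rps12-ps3 and Rps27rt). For most, more signal was listed at the copy than at the gene with introns. Rpl12 kept 1.81% of the combined TPM at its own row, the rest being at Gm10275 (250 TPM). Rpl5 kept 5.93% beside Gm15500, Rps27 8.17% beside Rps27rt, Rpl10 10.9% beside Rpl10-ps3 and Rpl27a 12.7% beside Gm7536. Rps23 (17.5%), Rpl28 (26.6%), Rpl27 (32.6%), Rpl31 (32.7%), Rps16 (38.1%), Rpl10a (42.3%), Rpl36a (43.8%) and Rps13 (48.3%) also kept less than their copy. Rps12, Rpl15, Rps6 and Rpl13 kept more, 58.95%, 62.97%, 72.98% and 98.71%. The sources used here do not state how the authors' counting treated reads that fit several places. The own row of these 17 genes is therefore uncertain as a measure of the gene. Copies short of full identity were not added, and some carried signal. Gm4332, 99.7% identical to Rps20, was at a mean of 79.1 TPM beside 116 TPM for Rps20. Rpl37rt, 99.66% identical to Rpl37, was at 65.0 TPM beside 112.5 TPM for Rpl37. Rows of such members may share reads too, which was not tested.

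**Figure D1:**
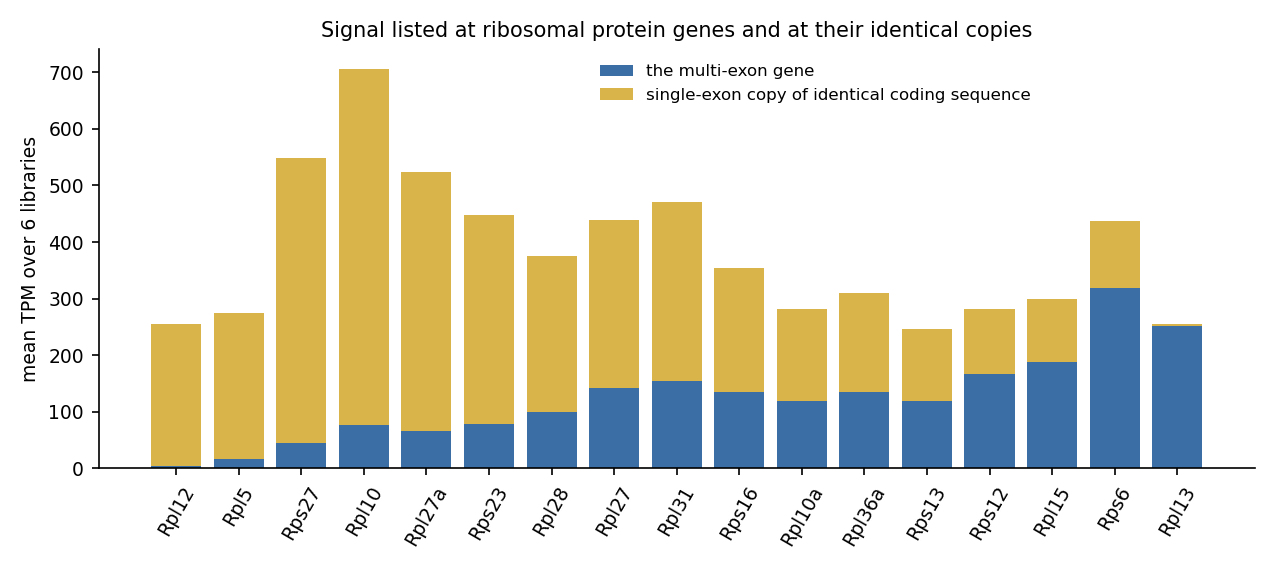
Mean TPM over 6 libraries (vertical axis) of the 17 genes that have an identical intronless copy, split into the gene's own row (blue) and the copy (yellow). Rpl12, at the left, has 4.61 TPM of its own in a total of 255, and Rpl13, at the right, has nearly all of its signal at its own row.

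Adding the copies drew the members' levels together. The 77 members other than the paralogues Rpl10l, Rpl3l, Rpl39l, Rpl22l1, Rps27l and Rpl7l1 ran from 4.61 to 770 TPM by their own rows, a range of 167-fold. With identical copies added they ran from 92.3 to 770 TPM, a range of 8.34-fold, and the number below 100 TPM went from 8 to 1. The 17 genes with copies had a median of 119 TPM by their own rows and 354 TPM with copies, and the 60 without had 273 TPM. A sum of TPM treats the copy as transcribed over its annotated length, so it is an approximation.

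Rps27 was the member whose own row differed most between labels. Its own row held 54.7, 48.1 and 69.7 TPM under the WT label and 41.7, 50.8 and 3.98 TPM under the KO label. KO replicate 3 stands alone, KO replicate 2 lies within the WT-labelled range and KO replicate 1 just below it. The difference in log2(TPM + 1) was -1.38, with 0.81 as its standard error (limma unadjusted p = 0.131, adjusted p = 0.993), and -0.30 without KO replicate 3. Rps27rt was at 472, 438 and 401 TPM under WT and at 528, 557 and 631 TPM under KO, highest in the library where Rps27 was lowest. Its groups did not overlap, and its difference of +0.39 had an unadjusted limma p of 0.0229 and an adjusted p of 0.993. Rps27 held between 7.33% and 14.8% of the sum of both rows in 5 libraries and 0.628% in KO replicate 3. The sum was at 495 ± 29.1 and 604 ± 32.6 TPM (SD over 3 libraries per label), or +0.29 in log2 (standard error 0.12, limma unadjusted p = 0.0494, adjusted p = 0.993), opposite in sign to that of Rps27 alone.

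**Figure D2:**
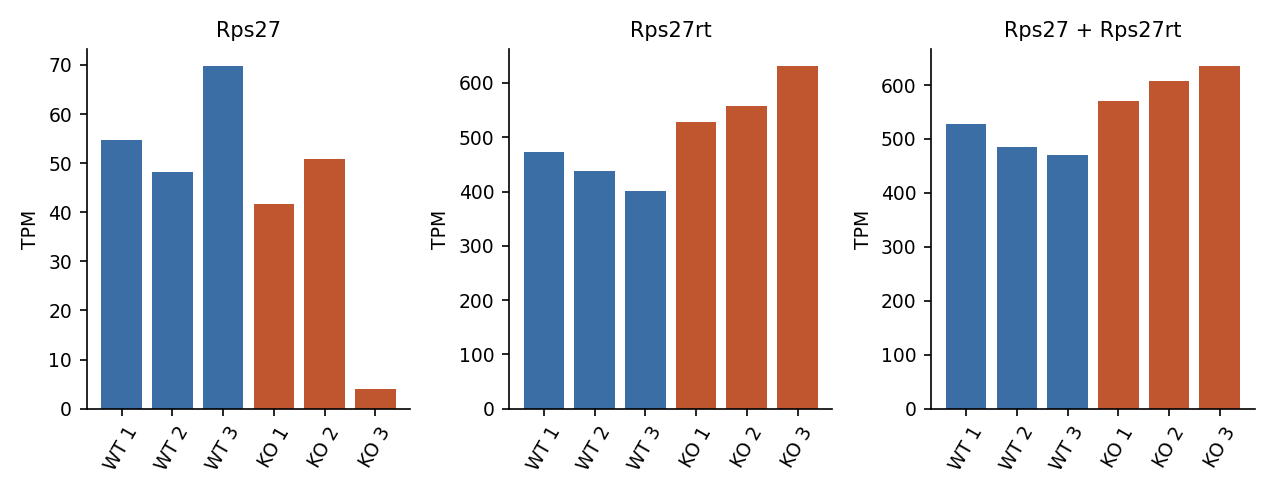
TPM in each of the 6 libraries (blue, labelled WT; orange, labelled KO) of Rps27, of its identical copy Rps27rt and of their sum, each panel with its own vertical axis from 0. Rps27 is at 3.98 TPM in KO replicate 3, where Rps27rt is at its highest, 631 TPM.

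Across the members, the difference between labels was small and one-sided before scaling, and no member passed the test. Of 80 members, 77 were above 0, with a median of +0.14 on the log2 scale, while 74.5% of all 11440 genes tested were above 0 with a median of +0.09. After median-ratio scaling 53 of 80 were above 0 with a median of +0.03, and 49.6% of all genes with a median of -0.002. The other genes of at least 50 TPM had medians of +0.06 before and -0.05 after scaling. In limma with Benjamini-Hochberg adjustment over all genes 0 of 80 members were called, where 0.00874% of all genes were, and the smallest adjusted p of a member was 0.993. At an unadjusted limma p under 0.05 there were 0 members with or without median-ratio scaling, where 2.76% of all genes were higher and 0.385% lower before scaling and 1.31% and 1.26% after it. With the replicate number as a block, 11 of 80 members had an unadjusted limma p under 0.05, all higher under KO, where 5.26% of all genes were higher and 0.918% lower, and 0 were called (smallest adjusted p = 0.724). With block and median-ratio scaling together there were 0, where 2.19% of all genes were higher and 2.27% lower. With no filter on low values there were 7, all higher, where 2.7% of all genes were higher and 0.587% lower.

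**Figure D3:**
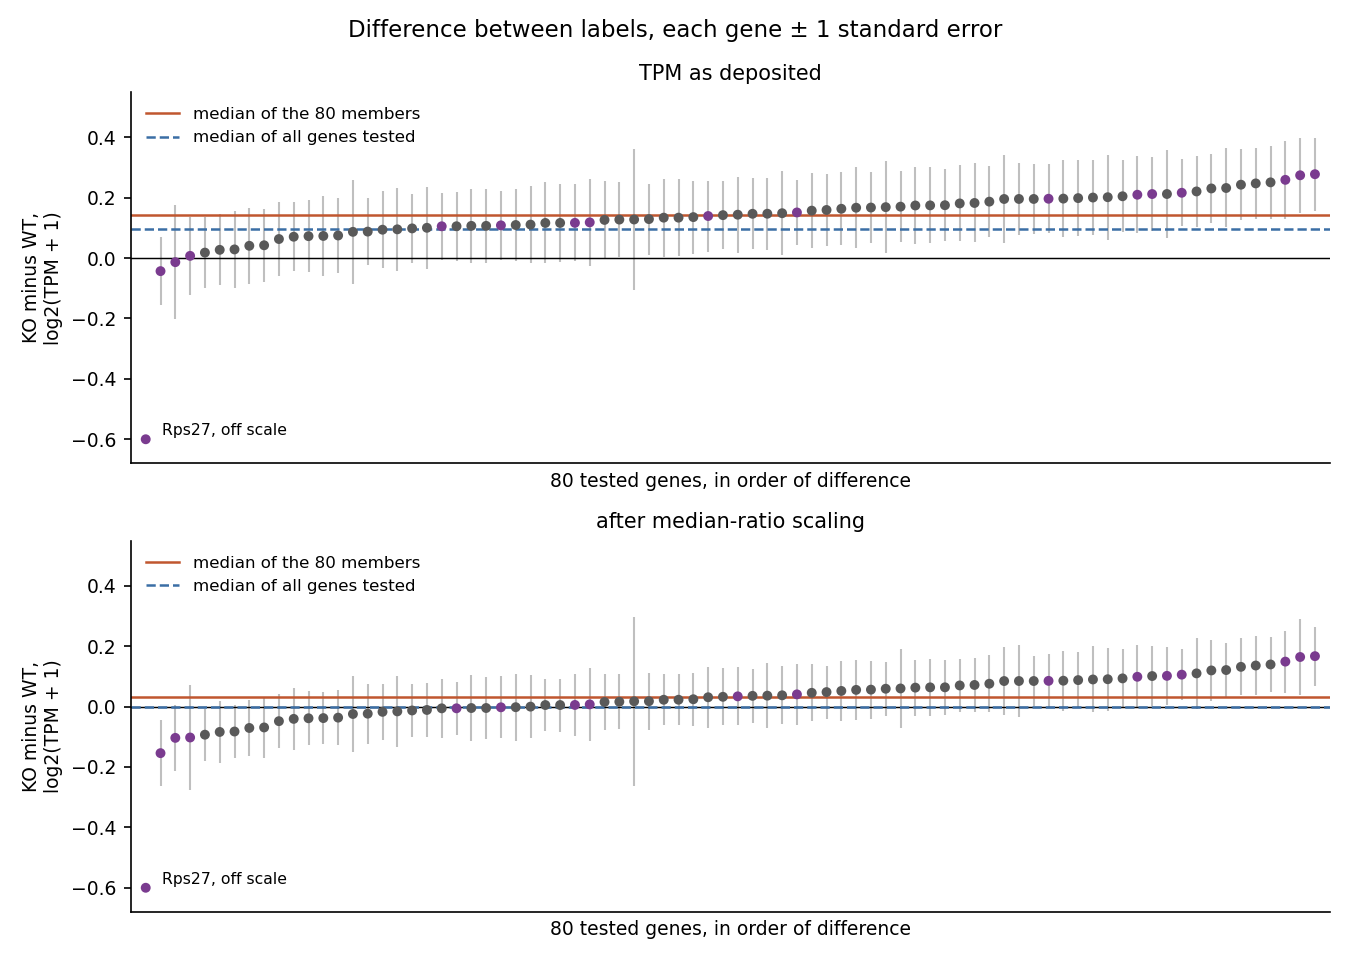
KO minus WT difference on the log2(TPM + 1) scale for the 80 tested members in order of size, before (top) and after (bottom) median-ratio scaling, with bars of 1 standard error from limma and purple points for the 17 genes with an identical copy. Rps27, at -1.38 and -1.49, is off scale and drawn at the lower edge without its bar, and the lines mark the medians of the members (+0.14 and +0.03) and of all genes tested (+0.09 and -0.002).

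The 32 small-subunit members had a median difference of +0.15, or +0.04 after scaling, and the 48 large-subunit members tested had +0.14 and +0.03. After scaling 18 of the 32 and 35 of the 48 were above 0, where 49.6% of all genes were. Before scaling and by own rows, all KO-labelled libraries lay above all WT-labelled ones in 14 of the 32 and 16 of the 48, where 8.23% of all genes did. The difference between the subunits was not tested. The 3 members below 0 before scaling were Rps27, Rpl31 and Rpl12, and each has an identical copy. Rpl31 was at 156 ± 4.46 and 152 ± 9.56 TPM by its own row (-0.04) and at +0.10 with Rpl31-ps8 added. Rpl12 was at 4.65 ± 1.16 and 4.57 ± 0.789 TPM (-0.01) and at +0.21 with Gm10275 added. With all identical copies added, 80 of 80 members were above 0 and the median was +0.15, with 0 called by limma where 0.00875% of all genes were, and with scaling as well 57 were above 0 with a median of +0.04.

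Of the 6 members with the smallest unadjusted p, 4 were small-subunit genes. Rps16 (chromosome 7, 28350652 to 28353155), a protein near the decoding site, was at 132, 118 and 115 TPM under WT and at 138, 156 and 149 TPM under KO. The groups did not overlap, with a difference of +0.28 (standard error 0.12, limma unadjusted p = 0.0530, adjusted p = 0.993), which scaling brought to +0.17. With its copy Rps16-ps2 added, Rps16 was at 363, 310 and 308 TPM under WT and at 357, 400 and 383 TPM under KO. The groups then overlapped, and the difference was +0.22 (limma unadjusted p = 0.129, adjusted p = 0.993), or +0.11 after scaling. Rps25 was at 374, 352 and 326 TPM against 407, 415 and 421 TPM (+0.24, and +0.13 after scaling). By their own rows, every KO-labelled library was above every WT-labelled one in both genes. Rpl27a was at 65.4, 55.8 and 58.8 TPM under WT and at 67.6, 71.4 and 79.4 TPM under KO by its own row (+0.27), and with Gm7536 added the difference was +0.15. Rpl35, at the exit of the peptide tunnel, was at 138 ± 8.31 and 162 ± 6.63 TPM (+0.23, and +0.12 after scaling). Rpl30, a large-subunit protein, was at 195, 167 and 155 TPM against 201, 210 and 194 TPM, with overlap by WT replicate 1 before scaling (+0.23, and +0.12 after scaling). Rpl10, needed for the joining of the subunits, was at 69.7 ± 5.35 and 83.7 ± 8.96 TPM (+0.26), which became +0.11 with its copy and +0.0025 with copy and scaling.

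In 30 of the 80 members, 37.5%, all KO-labelled libraries lay above all WT-labelled ones, where 8.23% of all genes tested and 5.07% of the other genes of at least 50 TPM did. No member lay wholly below, where 0.857% of all genes did. After median-ratio scaling the count was 5 of 80, or 6.25% (Rpl23, Rpl30 and Rps25 among them), where 3.44% of all genes lay wholly above. Rpl29 and Rps27 lay wholly below, 2.50% of members where 3.52% of all genes did. Of the 30 wholly above before scaling, 10 are among the 17 genes with an identical copy, whose own rows are uncertain. With copies added and no scaling, Rpl10, Rpl15, Rpl27a, Rpl5 and Rps16 overlapped between labels. Rpl12, Rps27 and Rpl36a, which overlapped by their own rows, then lay wholly above. By own rows, leaving out 1 library gave 30 (without WT replicate 3) to 51 (without WT replicate 1) members wholly above, where 10.5% and 22.8% of all genes were. A gene wholly above in all 6 libraries stays so when 1 is left out. These counts therefore could not fall below 30 and do not test that number.

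The members went up and down together from library to library. WT replicate 3 held the lowest value of 61 of the 80 members, and of 41.6% of all genes tested. KO replicate 2 held the highest value of 44 members, and of 29.1% of all genes. In the same libraries the 20 most abundant genes took 46.8% and 40.7% of all TPM, the largest and the smallest share of the 6, and the part of this in the result was not tested. After median-ratio scaling WT replicate 3 was lowest in 7 members and KO replicate 3 was highest in 38. As a description, the median correlation over 3160 pairs of members across the 6 libraries was 0.68 before and 0.20 after scaling, the libraries and their totals being shared by all pairs. Rpl31, Rps27 and Rpl22l1 were the members that went against the others, with r of -0.58, -0.20 and -0.16 with the members' median. By number, the KO-labelled library was the higher one in 60, 75 and 74 members in numbers 1, 2 and 3, and after scaling in 50, 51 and 49. The same counts over all genes were not made, so these have no background beside them.

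**Figure D4:**
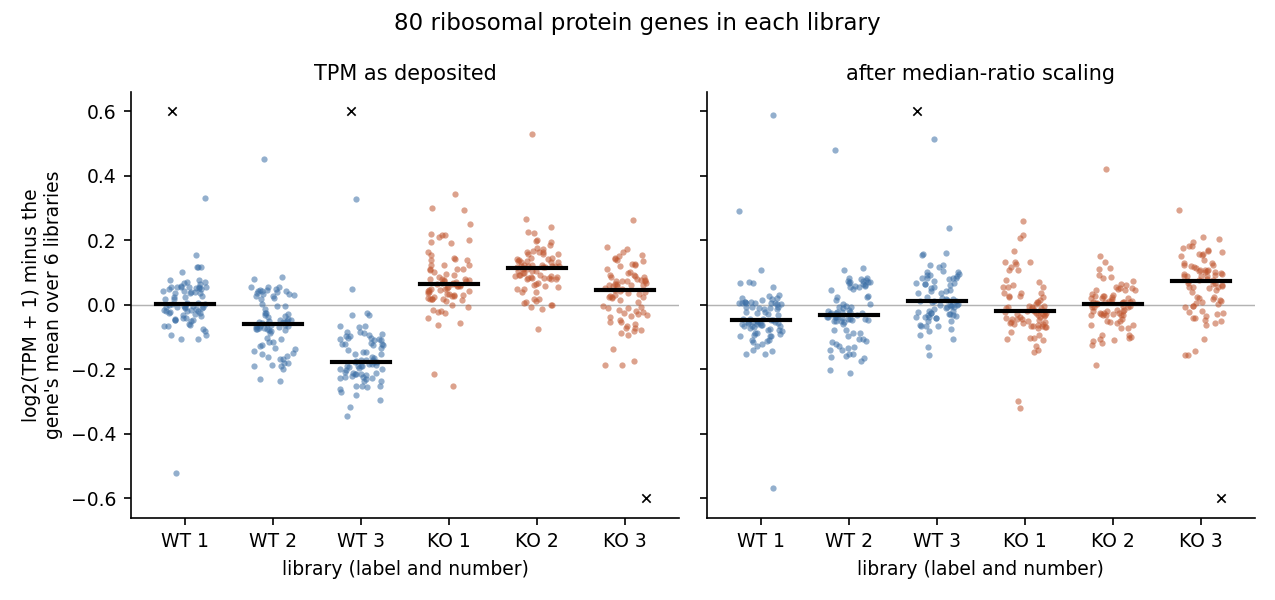
Each point is 1 of the 80 tested members in 1 library (blue, labelled WT; orange, labelled KO), as log2(TPM + 1) minus that gene's mean over the 6 libraries; black bars are medians and crosses are points beyond the axis limits. On the left WT replicate 3 is lowest and KO replicate 2 highest, and on the right, after median-ratio scaling, the medians lie closer together.

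When each library was centred on the median of its tested members, which asks whether single subunits leave the level of the rest, 0 of 80 members were called by limma and 0 had an unadjusted p under 0.05, where 1.09% of all genes were higher and 1.31% lower. Apart from Rps27, the scaled differences lay between -0.15 (Rpl31) and +0.17 (Rps16). Rpl36a was at 135 ± 7.21 and 136 ± 15.2 TPM (+0.007, scaled -0.10, and +0.13 with its copy added), Rpl38 at 253 ± 15.4 and 258 ± 13.3 (+0.03, scaled -0.08) and Rpl29 at 235 ± 13.2 and 238 ± 13.2 (+0.02, scaled -0.09). The standard error of a member was between 0.11 and 0.23 on the log2 scale, apart from 0.81 for Rps27, so differences of the size of the medians could not be resolved gene by gene.

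Members known for roles outside the ribosome or in disease stayed within this band. Rps6, the substrate of the S6 kinases downstream of mTORC1, was at 304, 306 and 281 TPM under WT and at 335, 354 and 331 TPM under KO, without overlap by its own row (+0.20, and +0.09 after scaling), and its difference was +0.18 with its copy added. Rpl11 and Rpl5, which with 5S rRNA bind Mdm2 when ribosome assembly is disturbed, were at 284 ± 21.4 and 327 ± 9.12 TPM (+0.20, scaled +0.09) and at 15.5 ± 0.510 and 17.2 ± 1.46 TPM (+0.14, scaled +0.03). With Gm15500 added Rpl5 was at +0.09, or -0.02 after scaling. Rps19, the gene most often mutated in Diamond-Blackfan anaemia, was at 169 ± 18.7 and 181 ± 7.36 TPM (+0.11, scaled -0.0002). Rps27a, whose protein is made as a fusion with ubiquitin, was at 246 ± 17.8 and 277 ± 6.77 TPM (+0.17, scaled +0.06). Rpsa, also described as a laminin receptor, was at 199 ± 11.7 and 228 ± 9.59 TPM (+0.20, scaled +0.08). The stalk proteins Rplp0, Rplp1 and Rplp2, which recruit elongation factors, had differences of +0.14, +0.07 and +0.20, and +0.03, -0.04 and +0.08 after scaling. Rplp1 had the lowest coefficient of variation of any tested member, 3.59%.

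The abundant members kept to the same pattern, with Rpl41 at 741 ± 24.9 and 799 ± 46.4 TPM, Rps2 at 728 ± 29.7 and 750.0 ± 37.8, Rpl13a at 630 ± 74.2 and 704 ± 11.4, Rps15 at 545 ± 34.6 and 595 ± 30.1 and Rpl23a at 537 ± 55.5 and 575 ± 34.9. The differences of these 5 genes, from +0.04 to +0.17, became -0.07 to +0.06 after scaling. A further 43 tested members had means of 78.4 to 522 TPM and differences of +0.04 to +0.22, all above 0, and of -0.07 to +0.11 after scaling, 31 of them above 0. The smallest unadjusted limma p among them was 0.091.

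Paralogues of ribosomal proteins differed widely in level. Rps27l, a p53-responsive relative of Rps27, was at 441, 412 and 337 TPM under WT and 498, 409 and 360 TPM under KO (+0.09, scaled -0.02), below the sum of Rps27 and Rps27rt in every library. Rpl22l1 was at 45.2, 65.4 and 82.1 TPM under WT and 56.1, 76.6 and 74.0 TPM under KO, against 231 ± 25.6 and 251 ± 2.74 TPM for Rpl22, to which its coding sequence is 67.5% identical. Its coefficient of variation, 20.9%, was the second largest of the tested members after the 49.3% of Rps27, and its labels overlapped. Rpl7l1 was at 34.1 ± 3.19 and 38.7 ± 6.53 TPM beside Rpl7 at 250 ± 25.1 and 273 ± 9.61. Rpl3 was at 181 ± 11.3 and 194 ± 26.4 TPM, while Rpl3l reached at most 0.075 TPM. Rpl39 was at 87.5 ± 0.201 and 97.2 ± 8.81 TPM, while Rpl39l was listed at 0.336 TPM in WT replicate 2 and at 0 in the other libraries. Rpl10l was listed at 0 in all 6. Rpl36al, a paralogue of Rpl36a with 87.9% identity that lies outside the rule, was at 260 ± 25.9 and 298 ± 26.5 TPM. Rps4x, on the X chromosome, was at 247 ± 16.2 and 259.5 ± 13.7 TPM.

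The subunit Rps30 is encoded under another name, as a fusion with a ubiquitin-like protein. Its gene, Fau, was at 341 ± 47.3 and 373 ± 35.8 TPM (+0.13, scaled +0.02). Rack1, a scaffold protein on the small subunit, was at 154 ± 6.73 and 167 ± 2.92 TPM (+0.12, scaled +0.005). Both differences were within the range of the members.

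Genes that make and run ribosomes were compared by lists, to be read against the 74.5% of all genes above 0 before scaling and 49.6% after it. Of 39 tested ribosome assembly genes, 33 were above 0 with a median of +0.18, or 26 with +0.07 after scaling. At an unadjusted limma p under 0.05, 2 of them were higher, where 2.76% of all genes were, and 0 were called. Nop58, a core protein of the box C/D snoRNPs that methylate rRNA, was at 15.3, 15.5 and 14.1 TPM under WT and at 19.8, 20.5 and 22.7 TPM under KO. Its groups did not overlap, and its difference was +0.46 (limma unadjusted p = 0.0049, adjusted p = 0.993), or +0.36 after scaling. Rrs1, which brings the 5S particle into the large subunit, was at 10.4, 8.48 and 8.39 TPM against 12.3, 12.2 and 14.4 TPM (+0.47, scaled +0.37). Nop56, the partner of Nop58, was at 8.28 ± 0.957 and 10.2 ± 0.462 TPM, and Brix1, a large-subunit assembly factor, at 8.61 ± 1.79 and 14.6 ± 5.27.

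Of 19 tested genes of RNA polymerase I and its factors, 16 were above 0 with a median of +0.13 (+0.04 scaled), 1 was higher at an unadjusted limma p under 0.05, where 2.76% of all genes were, and 0 were called. That gene was Polr1b, and with the replicate block its unadjusted limma p was 0.0548 and the count 0. Polr1b, the second-largest subunit, was at 2.73 ± 0.455 and 3.87 ± 0.340 TPM, and Ubtf, the rDNA-binding factor, at 14.3 ± 2.85 and 17.5 ± 0.804. Polr1e was lower by value, at 3.53 ± 0.204 and 2.30 ± 1.27 TPM, and its lowest library was KO replicate 3 at 1.05 TPM.

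Among 24 genes that control ribosomal protein mRNAs, 22 were above 0 with a median of +0.15 (+0.04 scaled), 1 was higher at an unadjusted limma p under 0.05 and 4 with the replicate block, where 2.76% and 5.26% of all genes were, and 0 were called. Akt1s1, which encodes the mTORC1 inhibitor PRAS40, was at 31.6, 29.6 and 24.99 TPM under WT and at 35.6, 41.0 and 39.7 TPM under KO, without overlap (+0.42, scaled +0.32). Rheb, the activator of mTORC1, was at 26.1 ± 1.92 and 31.1 ± 2.39 TPM, and Larp4, a poly(A)-binding La-related protein, at 13.1 ± 0.949 and 17.0 ± 3.65. Myc, a transcriptional activator of ribosome synthesis, was at 0.858, 1.45 and 1.49 TPM under WT and at 1.36, 9.85 and 3 TPM under KO. KO replicate 2 was the highest of the 6.

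Translation factors, many of which share the TOP motif, had 37 of 38 above 0 with a median of +0.12, or 21 with +0.009 after scaling, and 0 with an unadjusted limma p under 0.05. Eif4a2, an RNA helicase of initiation, was at 145 ± 5.30 and 170 ± 7.73 TPM, Eef1b2, an exchange factor of elongation, at 136 ± 9.42 and 161 ± 11.1, and Tpt1 at 854 ± 64.7 and 962 ± 45.1. Of 19 genes of ribosome quality control and nascent-chain handling 18 were above 0 (median +0.11, scaled +0.005), with Zfp598, which marks collided ribosomes, at 10.2 ± 2.50 and 14.01 ± 2.39 TPM. For comparison, 78 mitochondrial ribosomal protein genes had medians of +0.07 and -0.03 after scaling, and 75 nuclear oxidative phosphorylation genes +0.05 and -0.06. No test between these lists was run. With the replicate block, 2 of the 38 translation factors, 3 of the 39 assembly genes, 6 of the 78 mitochondrial ribosomal protein genes and 3 of the 75 oxidative phosphorylation genes were higher at an unadjusted limma p under 0.05, where 5.26% of all genes were, and 0 were called. Without it these counts were 0, 2, 2 and 1.

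**Figure D5:**
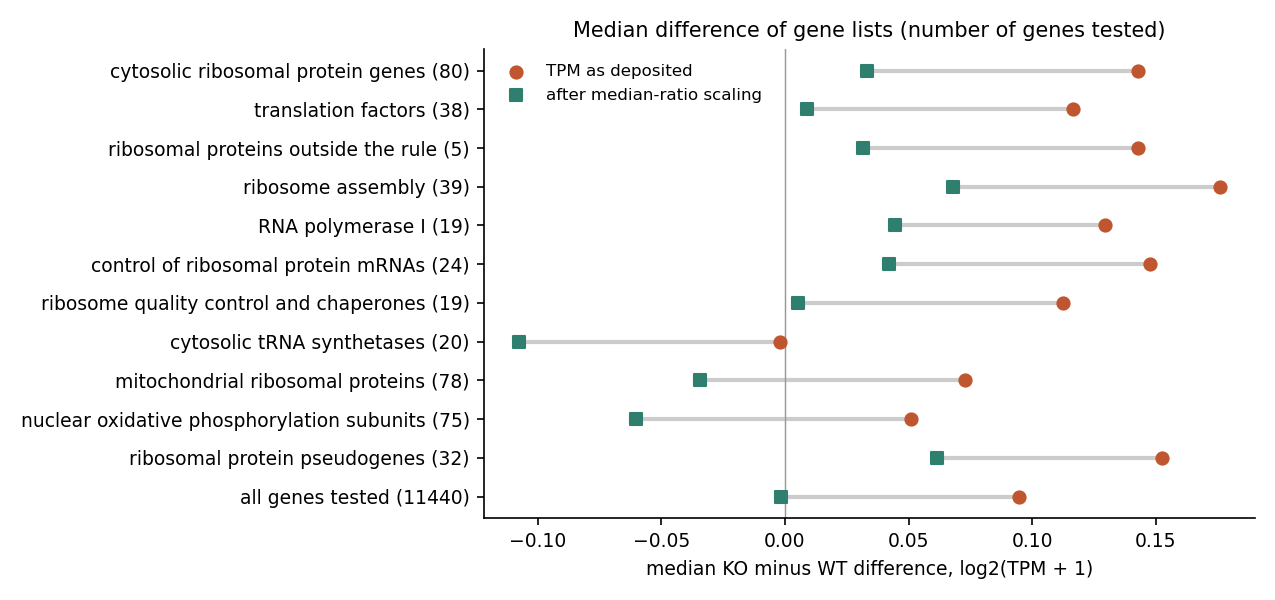
Median KO minus WT difference on the log2(TPM + 1) scale of the ribosomal protein genes, of related lists and of all genes tested, before (circles) and after (squares) median-ratio scaling, with the number of genes tested in brackets. Scaling moves every list to the left by about the same amount, and the ribosomal protein genes lie at +0.14 and +0.03.

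The genes outside the list whose log2 pattern over the 6 libraries was most like the members' median were Cdkn2aipnl (r = 0.996), Tapt1 (0.993), Tmx1 (0.989), Isg20l2 (0.988) and Exosc5 (0.988), by Pearson correlation over 6 libraries that share one total. Exosc5, a subunit of the RNA exosome, was at 19.2, 18.3 and 16.3 TPM under WT and at 19.1, 22.6 and 19.8 TPM under KO, lowest and highest in the same libraries as most members.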

How the data were processed

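Liver RNA was measured in 6 libraries, 3 labelled WT and 3 labelled KO. The authors deposited one table of TPM for 54600 genes, and the tools named in the submitters' processing notes include fastp, HISAT2 and featureCounts, on mm10, without versions or roles. TPM keeps no read totals, so depth is unknown, no count model was used and no counting interval is given. A value of exactly 0 is reported as listed at 0. Of 54323 Ensembl identifiers, 51492 matched a name in GENCODE M21, on the build of mm10; 18 members carry an assembled-locus prefix and none has several rows.

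A gene was kept if 3 or more libraries reached 1 TPM, which left 11440 genes. Their log2(TPM + 1) values were fitted in limma (3.58.1, under R 4.3.3), letting the variance follow the mean. Tests were two-sided, and a gene was called at 0.05 after Benjamini-Hochberg adjustment over all of them. A fold on this scale understates changes of low genes. The fit was also run on simulated data with independent genes and changes larger than the members' medians, so that run does not bear on differences of their size. Identical copies were found with BLAST 2.17.0 at 100% identity over at least 95% of a coding sequence. The labels do not say that libraries come from separate animals, so the spread behind each p-value is that of these samples and may be technical.

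The labels number libraries 1 to 3 in both groups. Deviations from the group means of same-numbered libraries were correlated at 0.16, 0.41 and 0.38 over all tested genes, each above 0.1, so the numbers were treated as a possible pairing, from the data; over the members alone these were 0.004, -0.22 and -0.41. The block was an alternative. Others were median-ratio and quantile scaling, TPM recomputed after removal of mitochondrial genes and the 20 most abundant, or over protein-coding genes, pseudocounts of 0.1 and 5, other filters, and leaving out each library. Adding identical copies, and leaving out libraries with scaling, were chosen after seeing the data. Members and lists were chosen with earlier results of these data known. Named members are the 5 of highest and of lowest mean, the 6 of smallest p per direction and scaling, those below 0, paralogue pairs, the 3 of largest variation and 10 chosen by role; for lists, up to 4 genes of smallest p. Rps4l, one of the pairs, was not analysed here. Some genes under these rules are not reported here.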

Additional observations from a re-analysis of the deposited data

How the results depend on the processing

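With 3 libraries per label, 1 table of TPM and no read totals, differences of about 0.1 on the log2 scale could not be resolved for single genes, and reads shared with copies could not be assigned. No member was called under any setting, and the members' median difference was above 0 in all of them. All settings reuse the same 6 libraries, so the shared sign is not separate support. With each library centred on its members, a median near 0 follows by construction. Before scaling, the members' median log2 level had a pooled SD within a label of 0.084. The size of the median difference depended on the scaling. The median difference of +0.14 was +0.0331 with median-ratio scaling, with or without the replicate block, +0.0583 with quantile normalization, +0.0776 (70 of 80 above 0) after removal of mitochondrial genes and the 20 most abundant, and +0.0359 with identical copies added and median-ratio scaling. Leaving out 1 library gave medians of +0.0961 to +0.1962, and with median-ratio scaling as well +0.0338, +0.0215 and +0.0494 without WT replicates 1, 2 and 3 and +0.0589, +0.036 and +0.009 without KO replicates 1, 2 and 3. Those scaled fits had 46 (without KO replicate 3) to 61 members above 0, and 49 without WT replicate 1. The ratio of summed TPM, 1.095, was 1.014 with median-ratio scaling, 1.041 with quantile normalization and 1.046 after removal of mitochondrial genes and the 20 most abundant. The 30 members wholly above became 5 with median-ratio scaling. With 1 library left out there were 30 to 51. It was 51 without WT replicate 1 and 47 without KO replicate 3, where 22.8% and 20.7% of all genes lay wholly above. Leaving out a library can only keep or raise this count, so that range is not support for it. The cause of the changes with scaling was not tested.

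The number of members with an unadjusted limma p under 0.05, which was 0, was 11 with the replicate block and 7 without a filter (where 2.7% of all genes were higher). It was 4, all higher, without WT replicate 1, where 460 of all 11440 genes were higher. It was 1, lower, without KO replicate 2, with and without median-ratio scaling, where 189 and 88 genes were lower. With identical copies added it was 1, higher, which was Rps27 with Rps27rt. The replicate block took the number of called genes over the whole table from 1 to 0, left that of members at 0, and moved the counts of related lists as given with them.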

Other observations

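Cytosolic tRNA synthetases, which charge tRNAs for the ribosome, had a lower median than the other lists of the translation machinery, a difference that was not tested. Of 20 tested, 10 were above 0 with a median of -0.002 on the log2(TPM + 1) scale, and 2 were above 0 with a median of -0.11 after median-ratio scaling, where 74.5% and 49.6% of all genes were above 0. Lars, the leucine enzyme, was at 8.69, 7.83 and 8.40 TPM under the WT label and 7.65, 6.89 and 7.03 TPM under the KO label, without overlap. Its difference was -0.19, or -0.28 after scaling (limma unadjusted p = 0.157 and 0.0405). Iars, the isoleucine enzyme, was at 10.5 ± 0.926 and 9.21 ± 0.564 TPM, and Cars, the cysteine enzyme, at 11.9 ± 2.63 and 9.70 ± 1.21, while Vars, the valine enzyme, was at 5.10 ± 0.827 and 6.01 ± 0.400 in the opposite direction. None of the 20 was called by limma, with or without scaling, and at an unadjusted p under 0.05 there were 0 before and 1, lower, after scaling, where 1.26% of all genes were lower after scaling.

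Gm12918, an intronless copy identical to the coding sequence of Rpl13, was at 19.7 TPM in KO replicate 1 and listed at 0 in the other 5 libraries. Rpl13 itself was at 240 TPM in that library, against 267 and 277 in the other KO-labelled ones. Under WT it was at 261, 243 and 220 TPM, a range that holds the 240 TPM. This gene was chosen after its values were seen.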
